A study of Mus musculus with 4 samples.

Results

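The 8 genes described here make, move, sense and remove sphingosine 1-phosphate (S1P), a signalling lipid. They were taken by gene name from the 55367 gene names of the count table, and all 8 passed the filter on low counts that left 16945 genes. They are the receptors S1pr1, S1pr2 and S1pr3, the kinases Sphk1 and Sphk2, the exporter Spns2 and the lipid phosphate phosphatases Plpp1 and Plpp3. RNA had been sequenced from endothelial cells of subcutaneous tumours that grew from KPC cells, a mouse pancreatic cancer line, in C57BL/6 mice. One group had received an anti-CD93 antibody and the other a control rat IgG, both by intraperitoneal injection 48 hours before the cells were taken, with 2 libraries per group. Cells were sorted as positive for CD31, an endothelial surface protein, and negative for CD45, a leukocyte protein. The labels give neither the age of the mice nor whether the 2 libraries of a group came from separate mice, so a p-value here reflects library-to-library spread, which may be technical.

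In endothelium, S1P is formed inside the cell when a sphingosine kinase phosphorylates sphingosine, and it leaves the cell through Spns2. Outside, it binds G protein-coupled receptors. S1PR1 signals through Gi to Rac and is known for strengthening endothelial junctions and restraining sprouting, while S1PR2 signals largely through G12/13 and is known for the opposite effect on the barrier. Plpp enzymes at the cell surface dephosphorylate S1P and the related lipid lysophosphatidate and so end the signal. CD93, the target of the antibody, is a transmembrane receptor of endothelial cells, and the study asked how its antibody changed expression in them.

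Base sequences around the gene start are shown for the members with a single RefSeq start (GRCm38.p6) close to the start in the deposited table: the abundant Plpp3 and the scarcer receptors S1pr2 and S1pr3. Of the 8 members, 6 matched the promoter table; the other 2 are S1pr1 and Plpp1. Each window holds 250 bases before and 50 after the start, 5′ to 3′ on the gene's strand, and capitals mark CACCC on either strand, a core that Krüppel-like factors bind. The windows are chr4:105157097-105157396 (plus strand) for Plpp3, chr9:20976744-20977043 (minus strand) for S1pr2 and chr13:51408368-51408667 (plus strand) for S1pr3.
Plpp3: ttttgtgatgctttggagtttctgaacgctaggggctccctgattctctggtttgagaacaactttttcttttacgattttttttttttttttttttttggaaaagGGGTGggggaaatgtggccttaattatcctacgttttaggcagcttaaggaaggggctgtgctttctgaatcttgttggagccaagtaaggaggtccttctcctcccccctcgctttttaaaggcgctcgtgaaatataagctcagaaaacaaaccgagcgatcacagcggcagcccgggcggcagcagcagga
S1pr2: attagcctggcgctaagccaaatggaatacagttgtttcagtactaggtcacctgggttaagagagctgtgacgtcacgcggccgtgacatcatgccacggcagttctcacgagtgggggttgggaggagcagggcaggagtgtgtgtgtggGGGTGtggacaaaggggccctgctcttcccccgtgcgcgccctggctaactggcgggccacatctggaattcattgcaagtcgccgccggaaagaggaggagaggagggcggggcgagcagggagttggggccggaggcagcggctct
S1pr3: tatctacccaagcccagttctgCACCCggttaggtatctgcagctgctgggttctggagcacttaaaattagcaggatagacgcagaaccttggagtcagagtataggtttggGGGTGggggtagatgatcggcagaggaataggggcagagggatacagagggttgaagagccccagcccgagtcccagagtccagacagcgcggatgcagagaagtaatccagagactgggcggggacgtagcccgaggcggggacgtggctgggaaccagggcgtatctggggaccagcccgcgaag
CACCC occurred once in the Plpp3 window, once in that of S1pr2 and at 2 places in that of S1pr3, and 57.5% of the 32851 windows of the table held it at least once. The GC box GGGCGG, also read on both strands, was found once in each of these 3 windows and in 35.7% of all windows. G and C made up 46% of the Plpp3 bases, 62% of the S1pr2 bases and 59% of the S1pr3 bases, against a median of 52.7% over all windows. The matches describe letters only, and binding was not measured.

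The assigned reads per library ran from 9364294 to 17813993. Control IgG replicate 2 was unlike the other 3: across genes its log2 CPM correlated with theirs at 0.945 to 0.947, while each of the others reached 0.978 or more with its closest library. Mitochondrial ribosomal RNA took 11.8% and 11.1% of the reads in the anti-CD93 libraries and 10.97% and 6.20% in the control libraries. Cd93 was at 1716 and 1514 CPM in the anti-CD93 libraries and at 1530 and 1759 CPM in the control libraries; CPM are reads per 1000000 reads of the tested genes after TMM scaling. The 10 endothelial markers, all tested, summed to 8452 and 8662 CPM in the anti-CD93 libraries and 8526 and 10272 CPM in the control libraries. Endothelial transcripts were thus abundant in all 4 libraries, most of all in control IgG replicate 2. Fitted changes, anti-CD93 over control IgG, were below 0 for 50.9% of all genes tested. Among these endothelial markers they were below 0 for 9 of the 10 and above 0 for 1. The lowest belonged to Cldn5, at 96.8 and 114 CPM in the anti-CD93 libraries and 156 and 158 CPM in the control libraries. Its log2 fold change was -0.57 (unadjusted p = 0.0114 and adjusted p = 0.812 by edgeR). The 7 leukocyte markers, 4 of them tested, summed to 29.4 and 24.4 CPM in the anti-CD93 libraries and 15.9 and 30.9 CPM in the control libraries. The 5 markers of tumour epithelium, all tested, summed to 2159 and 1768 CPM in the anti-CD93 libraries and 1518 and 2250 CPM in the control libraries. Keratins Krt8, Krt18 and Krt19 made up most of that sum, and their groups overlapped, while the adhesion genes Epcam and Cdh1 were higher in both anti-CD93 libraries. Of all genes tested, 20.1% were higher without overlap between the groups. Epcam was at 34.1 and 41.1 CPM in the anti-CD93 libraries and 21.7 and 23.4 CPM in the control libraries (log2 fold change 0.74, unadjusted p = 0.00798 and adjusted p = 0.812 by edgeR). Cdh1 was at 351 and 290.0 CPM in the anti-CD93 libraries and 216 and 210.4 CPM in the control libraries (log2 fold change 0.59, unadjusted p = 0.0108 and adjusted p = 0.812 by edgeR). The 8 pericyte and fibroblast markers, all tested, summed to 1211 and 1276 CPM in the anti-CD93 libraries and 1275 and 1558 CPM in the control libraries. Epithelial and mural or fibroblast transcripts were thus present in the sorted RNA, and 0 markers of these lists passed the test. In bulk samples, fewer cells of a type and less RNA per cell cannot be told apart.

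The 8 members covered a wide range of levels. On a scale of reads per kilobase of exon per 1000000 assigned reads (RPKM), S1pr1 averaged 129 ± 19.4 over the 4 libraries (SD), above 98.8% of the genes tested. Plpp3 averaged 116 ± 5.42 RPKM, and its library values overlapped those of S1pr1, so the order of these 2 is not settled. Plpp1 followed at 39.7 ± 5.25 RPKM and Spns2 at 24.4 ± 5.34 RPKM, each apart from its neighbours in all 4 libraries. The remaining members were far lower. Sphk2 averaged 2.88 ± 0.0965 RPKM, S1pr3 1.93 ± 0.381 RPKM, Sphk1 1.20 ± 0.367 RPKM and S1pr2 0.472 ± 0.0396 RPKM, the last above 9.26% of the genes tested. The library values of S1pr3 and Sphk1 overlapped, although S1pr3 lay above Sphk1 within each library. Sphk2 lay above and S1pr2 below both. The remaining receptors are S1pr4, known from leukocytes, and S1pr5, known from natural killer cells and oligodendrocytes. S1pr4 was at 2.71 and 2.91 CPM in the anti-CD93 libraries and 2.20 and 3.96 CPM in the control libraries. S1pr5 had 0 and 6 reads in the anti-CD93 libraries and 0 and 4 reads in the control libraries and was not tested. In anti-CD93 replicate 1, a count of 0 allows up to 0.168 reads per 1000000 if each read is taken as independent. Since both mates of a pair were counted, that limit is too low even for counting error.

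**Figure D1:**
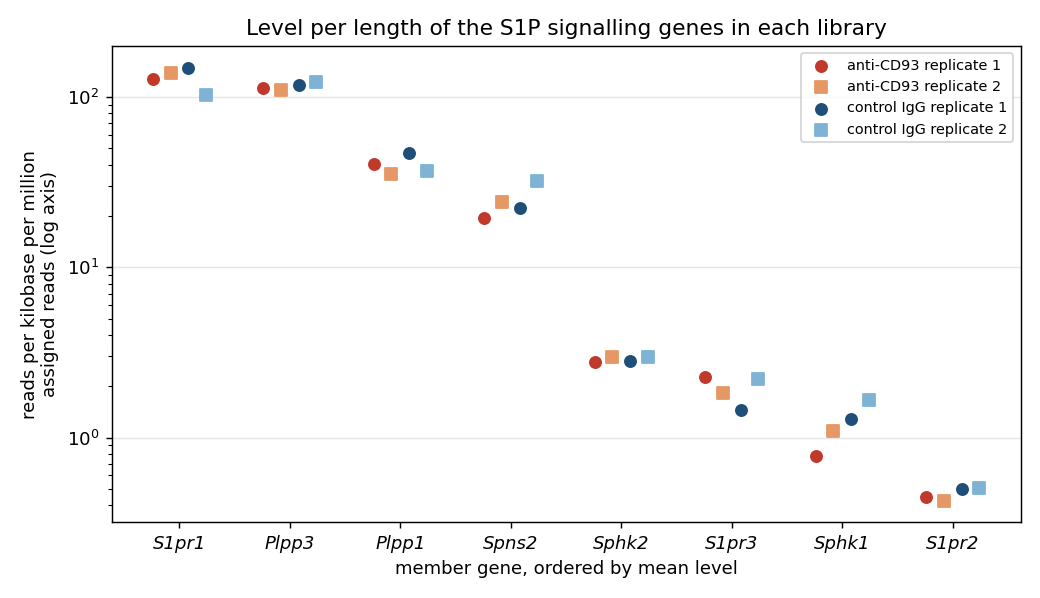
Level of each member per length (RPKM, log axis) in the 2 anti-CD93 and the 2 control IgG libraries, members ordered by their mean from S1pr1 to S1pr2. S1pr1 and Plpp3 sit above 100 RPKM in every library, and Sphk2, S1pr3, Sphk1 and S1pr2 below 3 RPKM.

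Counting did not use strand, and reads that fall on exons of more than 1 gene are left out by the counter's default, so overlaps can lower a level. Of the exon bases of Plpp1, 25.8% lie over Mtrex on the opposite strand, and of those of Sphk2, 21.9% lie over Dbp and Rpl18. Over the bases that no other gene shares, Plpp1 averaged 53.6 RPKM and Sphk2 3.69 RPKM, which left the order of the members as above. S1pr1, S1pr2 and Plpp3 shared no exon base with another gene, and S1pr3, Spns2 and Sphk1 shared 1.01%, 3.21% and 4.02%.

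Between the groups, 0 of the 8 members passed edgeR's quasi-likelihood test at an adjusted p under 0.05, where 0% of all 16945 genes passed (0 genes). At an unadjusted p under 0.05, 0 members were found, against 761 or 4.49% of all genes (1.99% higher and 2.5% lower). DESeq2 and limma-voom also called 0 members, where DESeq2 called 5 genes in all (0.015%) and limma-voom 0. Without a count filter 0.144% of genes were called, with replicate number as a block 0.0826%, without control IgG replicate 2 0.0767% and without anti-CD93 replicate 2 0.0059%, and 0 members in each. Fitted log2 fold changes, anti-CD93 over control IgG, were above 0 for 3 members and below 0 for 5, where 50.9% of all genes were below 0, with a median of -0.12, against a median of -0.0092 over all genes tested. For Sphk1, S1pr2 and Plpp3, both anti-CD93 libraries lay below both control libraries. Such a separation downward was seen in 19.7% of all genes tested and upward in 20.1%, or 39.8% in either direction, and 0 members were separated upward. All adjusted p-values of the members were between 0.812 and 1.0 by edgeR, so the values below describe these libraries.

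**Figure D2:**
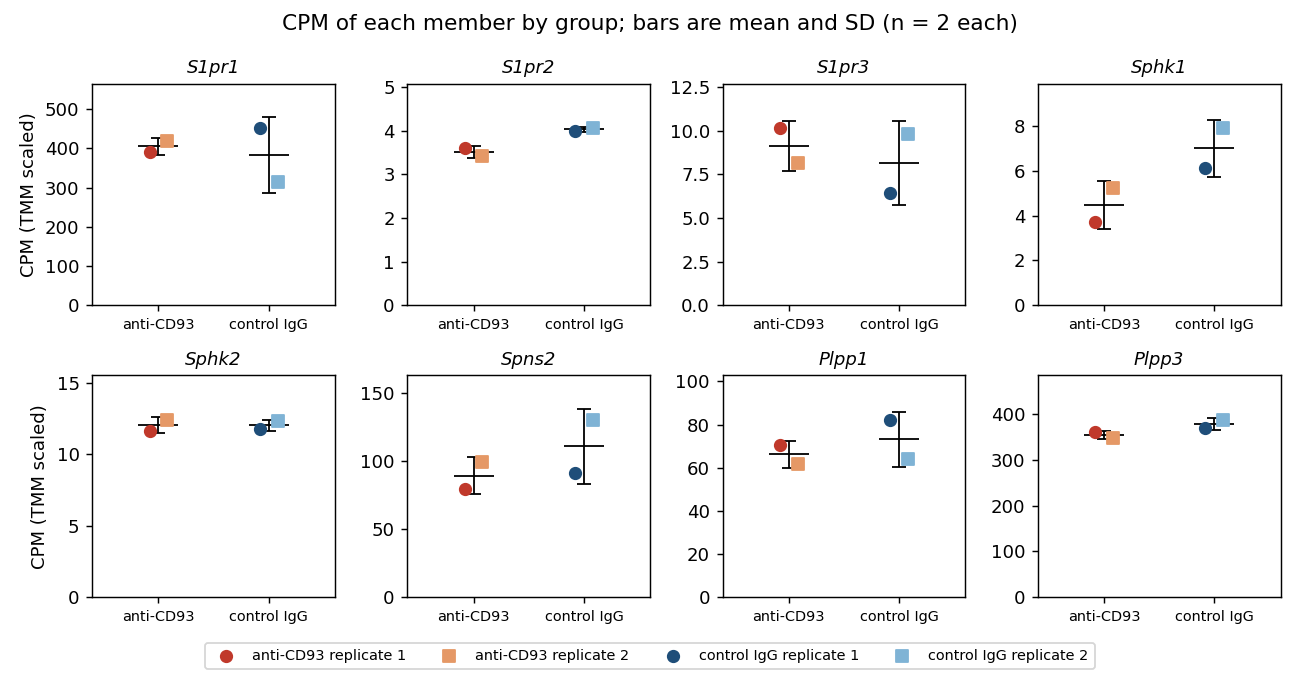
CPM of each member in the anti-CD93 (left) and control IgG (right) libraries, with mean and SD as bars (n = 2 each) and every axis starting at 0. The groups stay apart for S1pr2, Sphk1 and Plpp3, and overlap for the other 5 genes.

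Among the receptors, S1pr1 (chromosome 3, 115710433 to 115715072, GRCm38) was at 390.3 and 420.3 CPM in anti-CD93 replicates 1 and 2, against 452 and 314 CPM in control IgG replicates 1 and 2. The control libraries bracketed both anti-CD93 libraries, and the group means were 405 ± 21.2 CPM with anti-CD93 and 383 ± 97.6 CPM with control IgG (SD, n = 2 each). The log2 fold change was 0.080 (SE 0.21), and its 95% interval of -0.40 to 0.56 allows 0.756 to 1.48 times the control level. The value rested on which control library was used. With control IgG replicate 2 left out, the log2 fold change was -0.16 (adjusted p = 0.734 by edgeR). With control IgG replicate 1 left out, it was 0.37 (adjusted p = 0.0232 by edgeR), in a fit that called 26.8% of all genes, 14.1% higher and 12.8% lower. In both fits 1 control library stands alone for its group and is assumed to vary like the anti-CD93 libraries. By their summed level, which the keratins dominate, the tumour epithelial markers ordered the libraries in reverse of S1pr1, but Cdh1 and Epcam did not; their part in the S1pr1 values was not tested.

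S1pr3 (chromosome 13, 51408639 to 51422797), a receptor that couples to Gi, Gq and G12/13, was at 10.2 and 8.14 CPM in the anti-CD93 libraries and 6.44 and 9.85 CPM in the control libraries. The groups overlapped, and the log2 fold change was 0.18 (SE 0.33, 95% interval -0.58 to 0.93); without control IgG replicate 1 it was -0.10 and without control IgG replicate 2 it was 0.51. S1pr3 and the summed level of the tumour epithelial markers were both highest in anti-CD93 replicate 1 and control IgG replicate 2 and lowest in control IgG replicate 1. That holds for the keratins, but Cdh1 and Epcam were low in control IgG replicate 2 as well; their part in the S1pr3 values was not tested. S1pr2 (chromosome 9, 20962361 to 20976781) was at 3.62 and 3.41 CPM in the anti-CD93 libraries and 4.00 and 4.07 CPM in the control libraries. It was lower in both anti-CD93 libraries, on 38 to 64 reads per library, with a log2 fold change of -0.20 (SE 0.38, 95% interval -1.08 to 0.69). Its separation is small beside this interval, which allows 0.474 to 1.61 times the control level.

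Per length, S1pr1 supplied nearly all of the receptor RNA in every library. Its share of the summed RPKM of S1pr1 to S1pr5 was 97.1% and 97.4% in the anti-CD93 libraries and 98.1% and 95.8% in the control libraries. The means were 97.2% ± 0.253 with anti-CD93 and 96.9% ± 1.65 with control IgG (SD, n = 2 each), a difference of 0.307 percentage points that an exact two-sided permutation test did not separate (p = 1.0, where the smallest p the design allows is 0.333). The anti-CD93 shares lay between those of the control libraries, and without control IgG replicate 2 the difference was -0.857 points. In plain reads S1pr1 held 6908 of 7200 and 5785 of 5990 receptor reads in the anti-CD93 libraries, against 5545 of 5700 and 2936 of 3107 in the control libraries. The lowest of these shares, 94.5% in control IgG replicate 2, had a 95% Wilson interval of 93.6% to 95.2%. That interval takes each read as independent; since both mates of a pair were counted, it is too narrow even for counting error.

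Of the kinases, Sphk1 (chromosome 11, 116530925 to 116536675), the growth factor-inducible cytosolic enzyme, showed the widest difference of the 8 members. It was at 3.73 and 5.23 CPM in the anti-CD93 libraries and 6.12 and 7.92 CPM in the control libraries, on 66 to 75 reads per library. Both anti-CD93 libraries were below both control libraries, with means of 4.48 ± 1.06 CPM with anti-CD93 and 7.02 ± 1.3 CPM with control IgG (SD, n = 2 each). The log2 fold change was -0.65 (SE 0.36, unadjusted p = 0.111 and adjusted p = 0.812 by edgeR), and its 95% interval of -1.48 to 0.19 allows 0.358 to 1.14 times the control level. It stayed below 0 with each library left out, from -0.91 without anti-CD93 replicate 2 to -0.41 without anti-CD93 replicate 1. Sphk2 (chromosome 7, 45709467 to 45718002), the isoform also found in nuclei and mitochondria, was at 11.6 and 12.4 CPM in the anti-CD93 libraries and 11.7 and 12.3 CPM in the control libraries. Its group means were 12.0 ± 0.556 CPM with anti-CD93 and 12.0 ± 0.399 CPM with control IgG, the log2 fold change was 0.00026 (SE 0.25), and its 95% interval of -0.58 to 0.58 allows 0.671 to 1.49 times the control level.

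Sphk2 was the more abundant kinase per length in every library. The ratio of Sphk1 to Sphk2 was 0.279 and 0.367 in the anti-CD93 libraries, against 0.454 and 0.560 in the control libraries. The groups did not overlap, and the exact two-sided permutation test gave p = 0.333, the smallest this design allows.

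Spns2 (chromosome 11, 72451638 to 72489904), the exporter through which endothelium supplies S1P to lymph and blood, was at 79.6 and 99.1 CPM in the anti-CD93 libraries and 91.2 and 130.5 CPM in the control libraries. The groups overlapped, and control IgG replicate 2 was the highest library. The log2 fold change was -0.31 (SE 0.23, 95% interval -0.83 to 0.21). The value was -0.033 without control IgG replicate 2 (adjusted p = 0.965 by edgeR) and -0.55 without control IgG replicate 1 (adjusted p = 0.0174 by edgeR), the second in the fit that called 26.8% of all genes. Without anti-CD93 replicate 1 it was -0.15 and without anti-CD93 replicate 2 it was -0.48. Spns2 is known from lymphatic endothelium as well. The 5 lymphatic markers summed to 502 and 512 CPM in the anti-CD93 libraries and 559.8 and 553 CPM in the control libraries. Of that sum, Flt4 alone gave 429.9 CPM in anti-CD93 replicate 1 and 479 CPM in control IgG replicate 2. Of the 4 tested, Flt4 and Pdpn were lower in both anti-CD93 libraries, while the groups overlapped for Prox1 and Lyve1. Among all genes tested, 19.7% were lower without overlap. Ccl21a was not tested. By Spns2 the libraries ranked as by the summed level of the 10 endothelial markers, though no single marker of the list gave that order. The order ran from control IgG replicate 2 down to anti-CD93 replicate 1. The part of either marker list in the Spns2 values was not tested.

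Of the phosphatases, Plpp3 (chromosome 4, 105157347 to 105232764), which restrains lysophospholipid signalling in vessel walls, had the tightest interval of the 8 members. It was at 360.2 and 347 CPM in the anti-CD93 libraries and 369 and 387 CPM in the control libraries, so both anti-CD93 libraries were lower. The log2 fold change was -0.097 (SE 0.16), and its 95% interval of -0.47 to 0.28 allows 0.720 to 1.21 times the control level. Plpp1 (chromosome 13, 112800792 to 112867894), a close relative with the same substrates, was at 70.7 and 61.9 CPM in the anti-CD93 libraries and 82.2 and 64.1 CPM in the control libraries. The groups overlapped, with a log2 fold change of -0.14 (SE 0.20, 95% interval -0.61 to 0.32). Without control IgG replicate 1 the value was 0.049, and without control IgG replicate 2 it was -0.31. Per length, the ratio of Plpp3 to Plpp1 was 2.82 and 3.11 with anti-CD93 and 2.49 and 3.35 with control IgG, so the control libraries again lay on both sides.

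**Figure D3:**
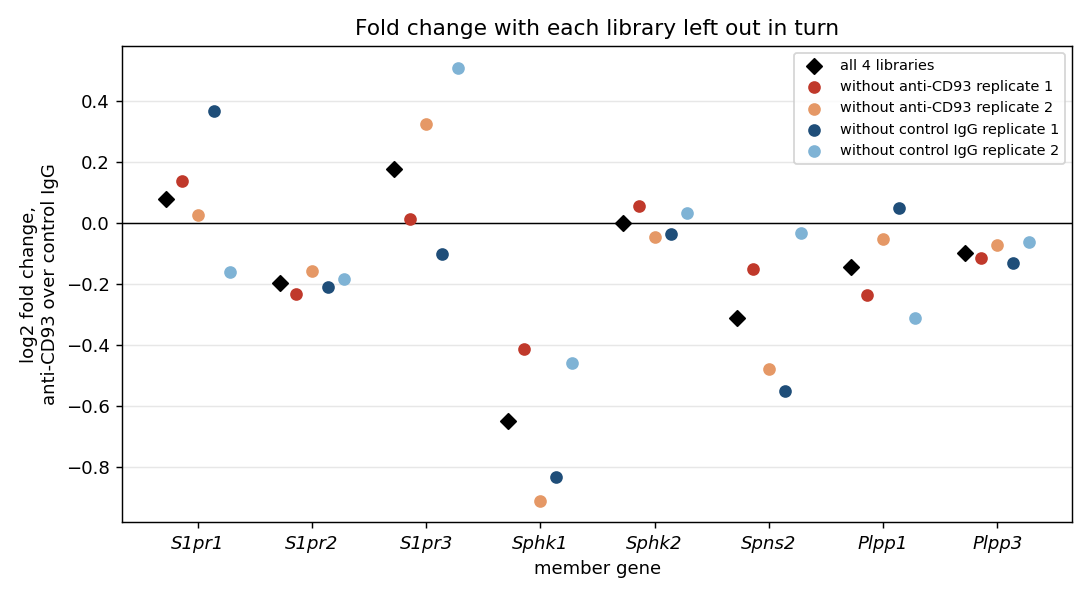
Log2 fold change of each member, anti-CD93 over control IgG, with all 4 libraries (diamonds) and with each library left out in turn (circles). Sphk1 lies between -0.91 and -0.41 throughout, while S1pr1, S1pr3, Sphk2 and Plpp1 cross 0.

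The members thus ranked the libraries differently. S1pr1 was highest in control IgG replicate 1 and lowest in control IgG replicate 2, whereas Spns2 and Sphk1 were highest in control IgG replicate 2 and lowest in anti-CD93 replicate 1. Among 8556 genes with a mean of at least 10 CPM, those whose log2 CPM followed S1pr1 most closely over the 4 libraries were Naa30, Dctd and Uqcc1, with root mean square differences of 0.0074, 0.014 and 0.015 after centring. With 4 libraries, such closeness is a description only.

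Around the members, 33 further genes of S1P synthesis and turnover were examined, of which 26 were tested and 0 passed. Their fitted changes were above 0 for 18 and below 0 for 8, with a median of 0.18 against -0.0092 over all genes; 9 of the 26 lay higher and 3 lower without overlap between the groups, where 20.1% and 19.7% of all genes did. At an unadjusted p under 0.05 there were 3, Cers6, Acer2 and Sgms2, where 4.49% of all genes were. Of the tumour epithelial markers, Epcam and Cdh1 were higher in both anti-CD93 libraries too, but Krt8, Krt18 and Krt19 overlapped between the groups. The part of the epithelial markers in these values was not tested. Cers6, a ceramide synthase, was at 18.3 and 16 CPM in the anti-CD93 libraries and 10.1 and 7.49 CPM in the control libraries, so that the groups did not overlap. Its log2 fold change was 0.96 (SE 0.27, unadjusted p = 0.00784 and adjusted p = 0.812 by edgeR), and 0.76 without control IgG replicate 2. Acer2, a Golgi ceramidase that releases sphingosine, was at 109 and 115 CPM in the anti-CD93 libraries and 83.4 and 43.8 CPM in the control libraries. Its log2 fold change was 0.81 (SE 0.29, unadjusted p = 0.0225 and adjusted p = 0.812 by edgeR), but 0.42 without control IgG replicate 2 and 1.35 without control IgG replicate 1 (adjusted p = 0.274 and 2.48e-04 by edgeR). Sgms2, a sphingomyelin synthase named after its value was seen, was at 44.6 and 34.3 CPM in the anti-CD93 libraries and 29.4 and 20.6 CPM in the control libraries (log2 fold change 0.66, and 0.43 without control IgG replicate 2). Without control IgG replicate 1, in the fit that called 26.8% of all genes, Cers6 and Sgms2 also passed the test, with adjusted p-values of 0.0059 and 0.00708 by edgeR.

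In the same list, the lower values with the smallest p belonged to a sphingomyelinase and a phosphatase. Smpd2 was at 10.2 and 11.8 CPM in the anti-CD93 libraries and 13.5 and 14.5 CPM in the control libraries. Plpp2, another lipid phosphate phosphatase, was at 12.4 and 14 CPM in the anti-CD93 libraries and 16.1 and 17.0 CPM in the control libraries. Neither gene's groups overlapped, and their log2 fold changes were -0.35 and -0.33 (adjusted p = 0.812 by edgeR for each). Of the enzymes that break S1P down, the lyase Sgpl1 was at 56.4 and 67.6 CPM in the anti-CD93 libraries and 56.5 and 43.1 CPM in the control libraries. Its groups overlapped. Sgpp1, an intracellular S1P phosphatase, was at 6.72 and 5.74 CPM in the anti-CD93 libraries and 7.18 and 7.07 CPM in the control libraries, lower in both anti-CD93 libraries. Its relative Sgpp2 was at 2.66 and 5.67 CPM in the anti-CD93 libraries and 2.61 and 4.07 CPM in the control libraries, with overlap. Mfsd2b, the exporter of red cells and platelets, was at 5.59 and 6.54 CPM in the anti-CD93 libraries and 5.14 and 6.64 CPM in the control libraries, with overlap. Red cells and platelets can also bring their own RNA into a sort, and their markers were low. The 4 erythroid markers summed to 17.8 and 12.9 CPM in the anti-CD93 libraries and 7.10 and 17.9 CPM in the control libraries. The 5 platelet markers summed to 42.3 and 21.9 CPM in the anti-CD93 libraries and 21.8 and 54.2 CPM in the control libraries, with Gp1bb at 0 in all 4; their part in the Mfsd2b values was not tested. Apom, the plasma carrier of S1P, had 16 and 3 reads in the anti-CD93 libraries and 2 and 4 reads in the control libraries and was not tested.

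Of 23 genes for the coupling and trafficking of S1P receptors, 22 were tested and 0 passed, with 10 fitted changes above 0, 12 below 0 and a median of -0.12. Without overlap between the groups, 6 of the 22 lay higher and 10 lower, where 20.1% and 19.7% of all genes did. At an unadjusted p under 0.05 there was 1 of the 22, where 4.49% of all genes were found. This was Nos3, the endothelial nitric oxide synthase that S1PR1 signalling activates (unadjusted p = 0.0174 and adjusted p = 0.812 by edgeR). It was at 124 and 155 CPM in the anti-CD93 libraries and 187 and 237 CPM in the control libraries. Its log2 fold change was -0.60 (SE 0.20), and -0.42 without control IgG replicate 2. Dnm2, a dynamin that pinches off endocytic vesicles, was at 186 and 198 CPM in the anti-CD93 libraries and 222 and 287 CPM in the control libraries (log2 fold change -0.40, and -0.21 without control IgG replicate 2). On the other side, Rock1, a kinase that acts on the actin cytoskeleton, was at 292 and 282 CPM in the anti-CD93 libraries and 261 and 159 CPM in the control libraries. Gnai3, a Gi subunit, was at 119 and 111 CPM in the anti-CD93 libraries and 109 and 63.4 CPM in the control libraries. Their log2 fold changes of 0.45 and 0.42 were 0.13 and 0.082 without control IgG replicate 2, and 0.85 and 0.86 without control IgG replicate 1. In that last fit, which called 26.8% of all genes (14.1% higher and 12.8% lower), all 4 genes passed the test, with adjusted p-values by edgeR of 4.85e-04 for Rock1, 7.13e-04 for Gnai3, 0.0022 for Dnm2 and 0.00391 for Nos3.

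The Plpp enzymes also act on lysophosphatidate, and of 7 genes for that lipid's synthesis and receptors 5 were tested and 0 passed. Their fitted changes were above 0 for 4 and below 0 for 1, with a median of 0.46 against -0.0092 over all genes. Lpar2 was at 3.11 and 2.69 CPM in the anti-CD93 libraries and 1.47 and 1.71 CPM in the control libraries, on 16 to 55 reads. Lpar1 was at 11.6 and 9.23 CPM in the anti-CD93 libraries and 7.34 and 7.81 CPM in the control libraries. Both receptors lay higher without overlap and 0 of the 5 lay lower, where 20.1% and 19.7% of all genes did. The log2 fold changes of Lpar2 and Lpar1 were 0.87 (SE 0.48) and 0.46 (SE 0.29), with adjusted p = 0.812 by edgeR for each. Epcam and Cdh1 lay higher without overlap too, while Krt8, Krt18 and Krt19 overlapped. The part of these epithelial markers in the receptor values was not tested. Enpp2, autotaxin, which makes lysophosphatidate outside the cell, was at 26.7 and 21.7 CPM in the anti-CD93 libraries and 21.6 and 27.6 CPM in the control libraries, and its groups overlapped.

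**Figure D4:**
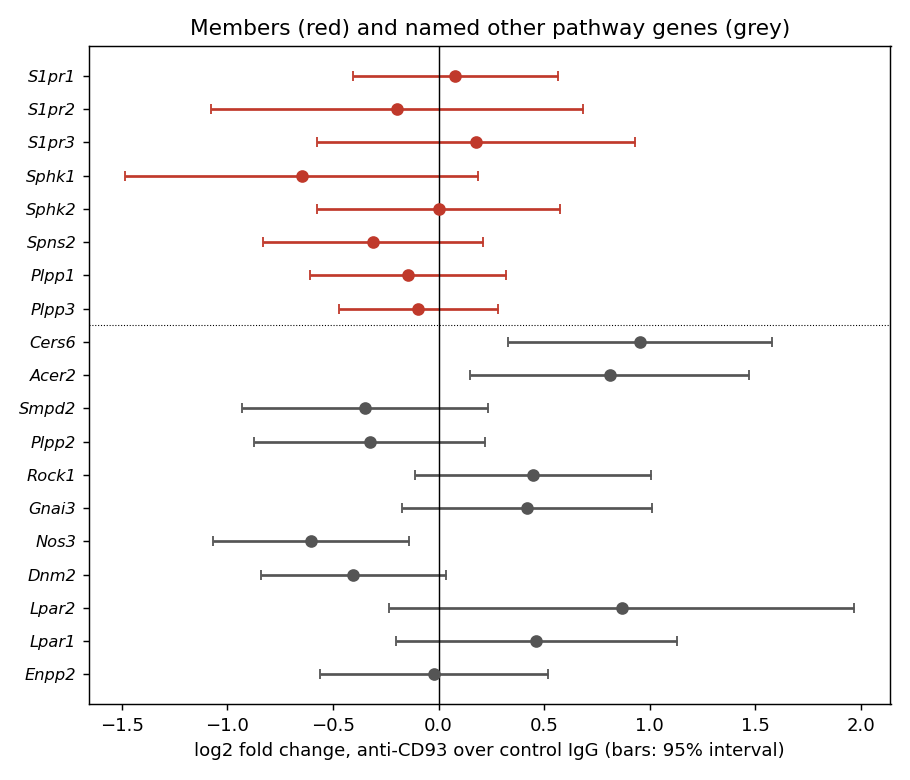
Log2 fold change, anti-CD93 over control IgG, with 95% interval for the 8 members (red) and 11 further pathway genes (grey). The interval includes 0 for all 8 members, and lies wholly above 0 for Cers6 and Acer2 and wholly below 0 for Nos3, before any adjustment for the number of genes tested.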

How the data were processed

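Total RNA of 4 libraries was made with a low-input stranded kit and sequenced in read pairs, per the labels' protocols. The deposited table holds raw read counts per gene name, made by the authors with featureCounts 2.0.1 on GENCODE vM25 (GRCm38) with no paired-end and no strand option, per the file headers. Mates were therefore counted singly. STAR 2.7.5b and DESeq2 1.28.1 were used, per the submitters' processing notes. The other deposited table, called normalized, was identical (0 of 221468 cells differed).

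Counts were filtered with filterByExpr (minimum count 10), scaled by TMM and compared with edgeR 4.0.16 (quasi-likelihood test, robust dispersion, no covariates, R 4.3.3), with Benjamini-Hochberg adjustment over 16945 genes at 0.05. Intervals use each gene's moderated standard error. RPKM used all assigned reads and the deposited exon length. The procedure was run on simulated counts with known changes and no outlying library. That run cannot show how it behaves with a library as unlike the others as control IgG replicate 2. Members and lists were chosen with earlier results of these data known. From each list the text names the 2 genes per direction with the smallest p, plus the remaining receptors, breakdown enzymes, exporter and carrier. Depth of 9364294 to 17813993 reads and 2 libraries per group limit the precision. Alternatives were DESeq2 1.42.0, limma-voom 3.58.1, other scalings and filters, non-robust dispersion, halved counts, a replicate block, a threshold of 0.1 and each library left out.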

Additional observations from a re-analysis of the deposited data

How the results depend on the processing

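The count of 0 members called held in all alternatives except the fit without control IgG replicate 1, which left 1 control library. There the log2 fold change was 0.37 for S1pr1 and -0.55 for Spns2. Of the other pathway genes 0 were called, and with 1 library left out 0 to 28, the 28 again without control IgG replicate 1. The lists of synthesis and turnover, receptor coupling and lysophosphatidate held 26, 22 and 5 tested genes. The fit without control IgG replicate 1 called 26.8% of all genes. Since 1 control library stands alone for its group there, the 28 cannot show a change in the pathway. Over all genes the count of 0 became 5 with DESeq2, 48 with no count filter and 14 with the replicate block, and ran from 0 to 4549 with 1 library left out (13 without control IgG replicate 2, 1 without anti-CD93 replicate 2). Replicate numbers were not taken to pair the libraries, since the differences between same-group libraries correlated at -0.016 across genes; the block changed the call of 0 members. Of 112 recomputed member values, 10 changed sign. Sphk2, near 0 throughout, was at -0.0029 with halved counts, -0.0070 with library size only, -0.0023 with limma-voom, -0.00032 with the replicate block and -0.0054 with upper quartile scaling, and ran from -0.047 to 0.055 with 1 library left out. In such fits S1pr1 ran from -0.16 to 0.37, S1pr3 from -0.10 to 0.51, Plpp1 from -0.31 to 0.049 and Enpp2 from -0.19 to 0.16, and Enpp2 was at 0.031 with no count filter. The S1pr1 receptor share differed by 0.373 points in plain counts, by 0.0826 points over S1pr1 to S1pr3, and by -0.857 to 1.47 points with 1 library left out. No scaling moved the median of all genes by more than 0.0073. The causes were not tested. With 38 to 75 reads per library, S1pr2 and Sphk1 are the members whose precision counting limits most.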
